A study of Saccharomyces cerevisiae with 4 samples.

Results

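The 10 genes described here carry out and control the use of allantoin and urea as nitrogen sources in *Saccharomyces cerevisiae*. They were listed by open reading frame (ORF) name for their known roles, with earlier results of these data known, and are 10 of the 6301 ORFs listed on the arrays. On each of 4 two-color arrays, cDNA from strain S288c moved to nitrogen-poor minimal medium (MM, no amino acids or adenine, 0.025% ammonium sulfate, 12 h) was hybridized together with cDNA from the same strain in nitrogen-rich synthetic complete medium (SC), both grown at 30 C. The cDNA was primed with oligo-dT plus a multi-targeted primer, a degenerate oligonucleotide that anneals within many mRNAs. Dye orientation was reversed between 2 pairs of arrays, and the arrays of each pair carry the numbers 1 and 2. No deletion or plasmid is named for the strain in either medium. The SC culture was grown to mid log phase, and cells were then held in MM for 12 h. The medium was changed as a whole. The loss of amino acids and adenine, the low ammonium, the growth stage and the time in culture therefore cannot be told apart.

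Each value is a log2 ratio of MM over SC, so that 1 means a 2-fold larger share of the mRNA in MM and 0 an equal share. A fixed mass of mRNA was reverse transcribed and the channel means were set equal. A change in total mRNA per cell would therefore not show, and more abundant below refers to shares. Only ratios were used, not the signal in either medium, and an ORF that was not well measured on an array has no value there. By the titles MM was labeled with Cy5 on one pair, but by the channel descriptions with Cy3. The direction was therefore taken from the MM to SC ratios in the study's own table, against which all 4 columns ran positively (r = 0.964 to 0.983 across 1737 to 1924 ORFs, slopes 0.98 to 1.04). The arrays are named below by title as MM-Cy5 and SC-Cy5, and values are given in the order MM-Cy5 replicates 1 and 2, then SC-Cy5 replicates 1 and 2. Replicates were separate reverse transcription reactions, and the number of cultures is not given in the sources used here. Errors therefore describe reverse transcription, labeling and hybridization, and whether they also hold differences between cultures is not known. The p-values measure only the spread between these arrays.

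Allantoin is a nitrogen-rich product of purine breakdown that yeast can take up and degrade to ammonia. Allantoinase, allantoicase and ureidoglycolate lyase open the ring and cut it in steps to urea and glyoxylate. Urea amidolyase turns the urea into ammonia through allophanate, the compound that also induces most genes of the pathway. Rich nitrogen sources keep these genes off by nitrogen catabolite repression, in which the GATA activators Gln3 and Gat1 are held out of the nucleus. Arrays of pooled cells cannot tell more transcript per cell from more cells that express a gene.

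The 8 genes for transport and breakdown were all more abundant in MM, whereas neither regulator gene passed the test. Called means an adjusted p at or under 0.05 from limma, with Benjamini-Hochberg adjustment over the 5956 ORFs that had 3 or 4 values. Of the 10 genes, 8 were called higher and 0 lower in MM by limma, and *DAL81* alone was lower at an unadjusted p under 0.05 (unadjusted p = 0.0407, adjusted p = 0.0608 from limma). *DAL3* lay just inside the threshold (limma adjusted p = 0.0453). The call of *DAL3* and the lack of one for *DAL81* both depended on the processing, as described below. Over all ORFs tested, 65.3% were called, 33.8% higher and 31.5% lower. The study's threshold of 0.05 was applied here to the unadjusted one-sided p from limma, whereas the study took its p-values from a Bayesian analysis. At this threshold the same 8 genes were higher and *DAL81* lower, and 39.2% of ORFs were higher. The median log2 ratio was 1.08 over the 10 genes, compared with 0.03 over all ORFs tested. Positive values on every array measured were found for 8 of the 10 genes, against 37.9% of ORFs tested. A mean of at least 2-fold was found for 6 of the 10, against 5.59%. Of these, *DUR1,2* lay next to the limit, at a log2 ratio of 1.01, and at 0.99 with the arrays centered on their medians.

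**Figure D1:**
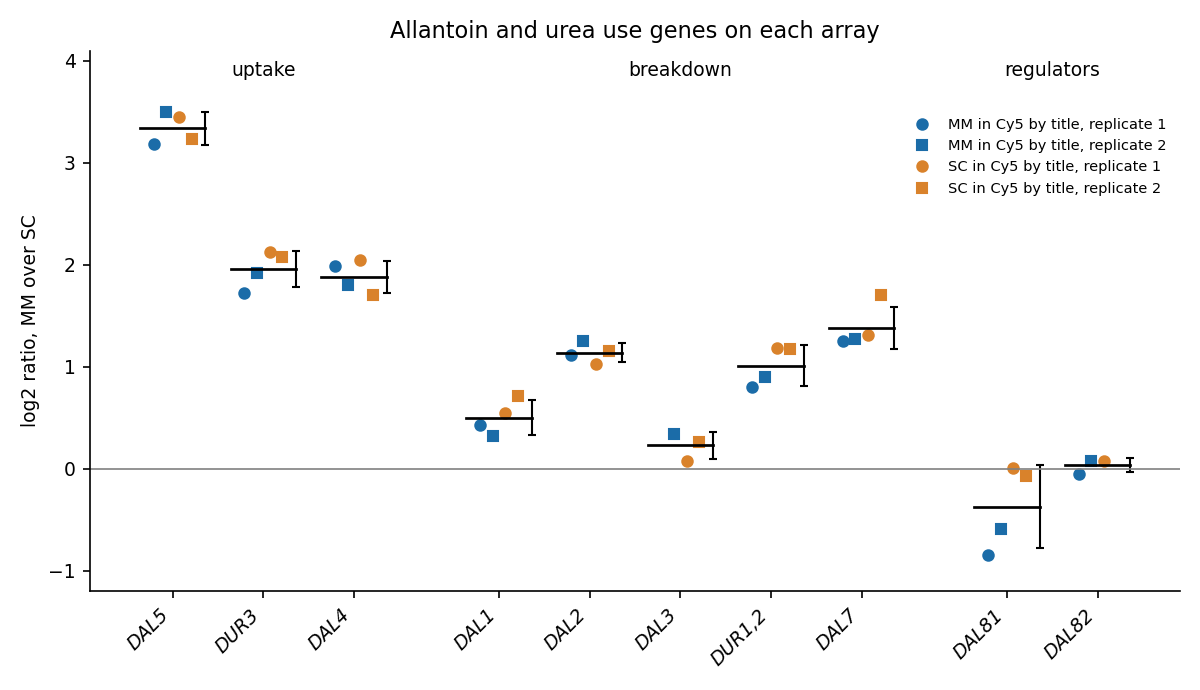
Log2 ratio of MM over SC (vertical axis) for each of the 10 genes, grouped by role, with a point for each array, colored by dye orientation (by title) and shaped by replicate number. Horizontal lines are means and bars 1 SD (n = 4 arrays; n = 3 for *DAL3* and *DAL82*); the uptake genes lie between 1.70 and 3.50 on every array, and *DAL81* splits by orientation.

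The uptake genes had the highest ratios of the set. *DAL5* (YJR152W) encodes the permease for allantoate and ureidosuccinate, which also carries dipeptides, and its expression is known not to need the inducer. Its log2 ratios were 3.19, 3.50, 3.45 and 3.23. All 4 arrays lay close together and far above 0. The mean was 3.34 ± 0.16 (SD, n = 4 arrays; 10.1-fold; limma adjusted p = 7.62e-07), which ranked 17th from the highest of 5956 ORFs.

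*DUR3* (YHL016C) encodes the active urea transporter, which also imports polyamines. It gave log2 ratios of 1.72, 1.92, 2.13 and 2.08. *DAL4* (YIR028W), the allantoin permease gene, gave 1.99, 1.80, 2.05 and 1.70. Both genes were thus almost 4-fold more abundant in MM and overlapped across arrays. The means were 1.96 ± 0.18 for *DUR3* (3.89-fold; adjusted p = 3.60e-06 from limma) and 1.88 ± 0.16 for *DAL4* (3.68-fold; adjusted p = 3.30e-06 from limma; SD, n = 4 arrays each). They ranked 72nd and 77th of the ORFs tested.

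Along the route from allantoin to ammonia, ratios were uneven. *DAL1* (YIR027C), for allantoinase, which opens the allantoin ring, had log2 ratios of 0.43, 0.32, 0.55 and 0.71. Its mean was 0.50 ± 0.17 (SD, n = 4 arrays; 1.42-fold; limma adjusted p = 0.00122). It was thus higher in MM on every array, by less than the transporter genes on each of them. *DAL2* (YIR029W), for allantoicase, which splits allantoate into ureidoglycolate and urea, had log2 ratios of 1.12, 1.25, 1.03 and 1.16. This was the smallest SD among the members measured on all arrays, with a mean of 1.14 ± 0.09 (SD, n = 4 arrays; 2.21-fold; limma adjusted p = 9.22e-06).

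*DAL3* (YIR032C), for ureidoglycolate lyase, which releases glyoxylate and the remaining urea, was the least changed enzyme gene. It had no value on the first MM-Cy5 array and log2 ratios of 0.34, 0.08 and 0.26 on the others. The mean was 0.23 ± 0.13 (SD, n = 3 arrays; 1.17-fold; limma adjusted p = 0.0453). All 3 values were positive, but the second was near 0. Its call was lost without the second MM-Cy5 array (adjusted p = 0.225) and without the second SC-Cy5 array (0.138). It was also lost after centering each array on its median, at a log2 ratio of 0.18 (adjusted p = 0.112). On the same 3 arrays, *DAL2* exceeded *DAL3* by 0.92 ± 0.02 (SD, n = 3 arrays).

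*DUR1,2* (YBR208C) encodes urea amidolyase, a biotin-dependent enzyme that joins urea carboxylase and allophanate hydrolase in 1 protein. Its log2 ratios were 0.80 and 0.90 on the MM-Cy5 arrays and 1.18 and 1.17 on the SC-Cy5 arrays. The orientations did not overlap, yet every value was well above 0. The mean was 1.01 (2.02-fold; standard error 0.08; adjusted p = 6.98e-05 from limma). The genes for urea uptake and urea breakdown thus both rose, the transporter gene by more. *DUR1,2* minus *DUR3* was -0.92, -1.03, -0.94 and -0.90, with a mean of -0.95 ± 0.05 (SD, n = 4 arrays), a nearly constant gap.

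*DAL7* (YIR031C) encodes a malate synthase, which joins the glyoxylate left by the pathway with acetyl-CoA. Its log2 ratios were 1.25, 1.27, 1.31 and 1.70. The second SC-Cy5 array stood above the others, which lay close together. The mean was 1.38 ± 0.21 (SD, n = 4 arrays; 2.61-fold; limma adjusted p = 2.18e-05). *MLS1* (YNL117W), the other malate synthase gene, which serves the glyoxylate cycle, gave log2 ratios of 2.02, 1.99, 2.24 and 1.84. It was thus higher than *DAL7* on each array. *DAL7* minus *MLS1* was -0.64 ± 0.34 (SD, n = 4 arrays), and -0.14 on the second SC-Cy5 array alone. The genes are similar in sequence, and spots of whole ORFs can share signal between relatives, which was not tested.

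The regulators gave no call. *DAL82* (YNL314W), for the activator through which the inducer acts on this pathway, had log2 ratios of -0.05, 0.08 and 0.08 and no value on the second SC-Cy5 array. Its values lay on both sides of 0. The mean was 0.04 ± 0.07 (SD, n = 3 arrays; limma adjusted p = 0.645), and the 95% confidence interval ran from -0.13 to 0.21.

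*DAL81* (YIR023W) encodes a zinc cluster activator that also serves the genes for γ-aminobutyrate (GABA) use and several amino acid permeases. Its log2 ratios were -0.85 and -0.59 on the MM-Cy5 arrays, and 0.01 and -0.07 on the SC-Cy5 arrays. The orientations did not overlap, with the first pair below 0 and the second pair near 0. The mean was -0.37 ± 0.41 (SD, n = 4 arrays; limma adjusted p = 0.0608), and the SD was larger than that of 96.9% of ORFs tested. The mean difference between orientations, MM-Cy5 minus SC-Cy5, was -0.69 (standard error 0.12; unadjusted p = 0.00131 and adjusted p = 0.107 from limma over the 5231 ORFs measured on all 4 arrays). *DAL81* was called lower in MM once each array was centered on its median (log2 ratio -0.40, adjusted p = 0.0237) or with a term for orientation (adjusted p = 0.00188). It was also called without the first SC-Cy5 array (log2 ratio -0.50, adjusted p = 0.0411) and without the second (-0.48, 0.0467). Without the first MM-Cy5 array its log2 ratio was -0.22 (adjusted p = 0.151).

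Differences between orientations were smaller, in log2 units, for the other members measured on all 4 arrays. Among the 8 measured on all 4 arrays, 3 had an unadjusted p at or under 0.05 for a difference between orientations (*DUR3*, *DUR1,2* and *DAL81*), and 0 passed after adjustment by limma. Over all ORFs measured on all arrays, 22.7% had such an unadjusted p and 0.0191% passed after adjustment. *DUR3* averaged 1.82 on MM-Cy5 and 2.10 on SC-Cy5 arrays, and *DUR1,2* 0.85 on MM-Cy5 and 1.18 on SC-Cy5 arrays. For both genes each orientation alone gave values well above 0. *DAL1* averaged 0.37 on MM-Cy5 and 0.63 on SC-Cy5 arrays (unadjusted p = 0.0507 from limma). Its orientations did not overlap, and the difference was large beside its mean of 0.50. *DAL5* averaged 3.35 and 3.34 in the same order. These differences were taken without centering the arrays, whose medians were -0.03 and -0.03 on MM-Cy5 and 0.06 and 0.11 on SC-Cy5 arrays. Of all ORFs measured on all arrays, 64.1% were lower on the MM-Cy5 arrays, so part of each difference is shared by the arrays as a whole. The part of dye or labeling in these differences was not tested.

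The ratios fell in the order *DAL5*, *DUR3*, *DAL4*, *DAL7*, *DAL2*, *DUR1,2*, *DAL1*, *DAL3*, *DAL82* and *DAL81*. *DAL5* stood apart, exceeding *DUR3* by 1.15 to 1.58 on the 4 arrays. *DUR3* and *DAL4* could not be ordered, with a difference of 0.08 ± 0.27 (SD, n = 4 arrays) that changed sign between arrays. *DAL4* exceeded *DAL7* by 0.50 ± 0.35 and *DAL7* exceeded *DAL2* by 0.24 ± 0.23 (SD, n = 4 arrays each), and neither difference was large beside its spread. *DAL2* and *DUR1,2* also changed places between arrays. *DUR1,2* exceeded *DAL1* on every array, by 0.51 ± 0.12 (SD, n = 4 arrays). *DAL1* and *DAL3* could not be ordered, at 0.30 ± 0.28 (SD, n = 3 arrays). Nor could *DAL3* and *DAL82*, which shared only 2 arrays, at 0.13 ± 0.18 (SD, n = 2 arrays). *DAL82* exceeded *DAL81* by 0.51 ± 0.39 (SD, n = 3 arrays), but by only 0.07 on the first SC-Cy5 array. These orders compare changes between media, not levels of transcript.

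**Figure D2:**
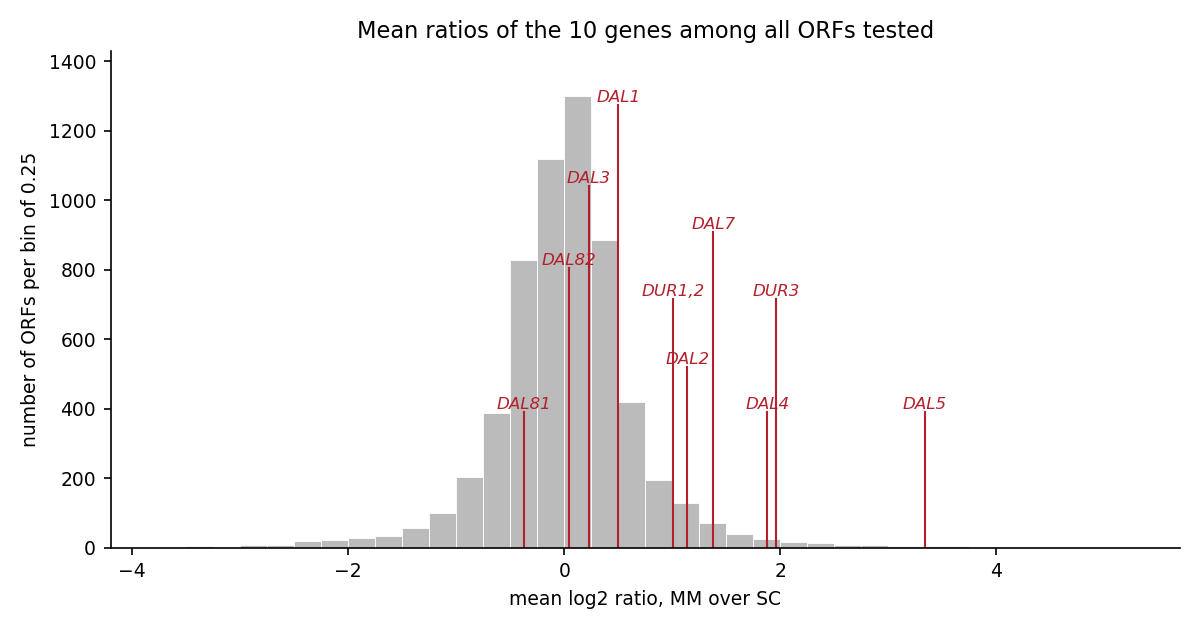
Histogram of the mean log2 ratio of MM over SC (horizontal axis) of the 5956 ORFs tested, as the number of ORFs in each bin of 0.25 (vertical axis), with a vertical line at the mean of each of the 10 genes (line heights only separate the labels). *DAL5* at 3.34 lies in the far right tail, and *DAL82* at 0.04 in the center.

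Of the 10 genes, 5 lie side by side in a cluster on the right arm of chromosome IX, in the order *DAL1*, *DAL4*, *DAL2*, *DCG1*, *DAL7* and *DAL3*. *DCG1* (YIR030C), a gene of uncertain role that is not among the 10, sits inside the cluster. Its log2 ratios were 0.74, 0.74, 1.00 and 1.12, with a mean of 0.90 ± 0.19 (SD, n = 4 arrays; limma adjusted p = 0.000107). All 6 genes of the cluster were thus called higher in MM, against 33.8% of all ORFs tested. Their median log2 ratio was 1.02, against 0.03 over all ORFs tested. On leaving out any single array, 5 or 6 were called, *DAL3* being the one lost. *DAL5*, *DUR3* and *DUR1,2*, which lie on other chromosomes, rose as well. *DAL81* lies on the same arm as the cluster but outside it, on the side of *DAL1*, and was not called (mean -0.37).

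Within the cluster, neighbors differed. *DAL1* and *DAL4* lie back to back on opposite strands, so that a single intergenic stretch precedes both, yet *DAL4* exceeded *DAL1* by 1.56, 1.48, 1.49 and 0.98. The difference averaged 1.38 ± 0.27 (SD, n = 4 arrays) and was positive on every array. *DAL7* and *DAL3*, adjacent on the same strand, differed by 0.94, 1.23 and 1.44 on the arrays that measured both, with *DAL7* the higher. *DAL2* and *DCG1*, which face each other, differed by 0.24 ± 0.24 (SD, n = 4 arrays), no more than the spread.

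**Figure D3:**
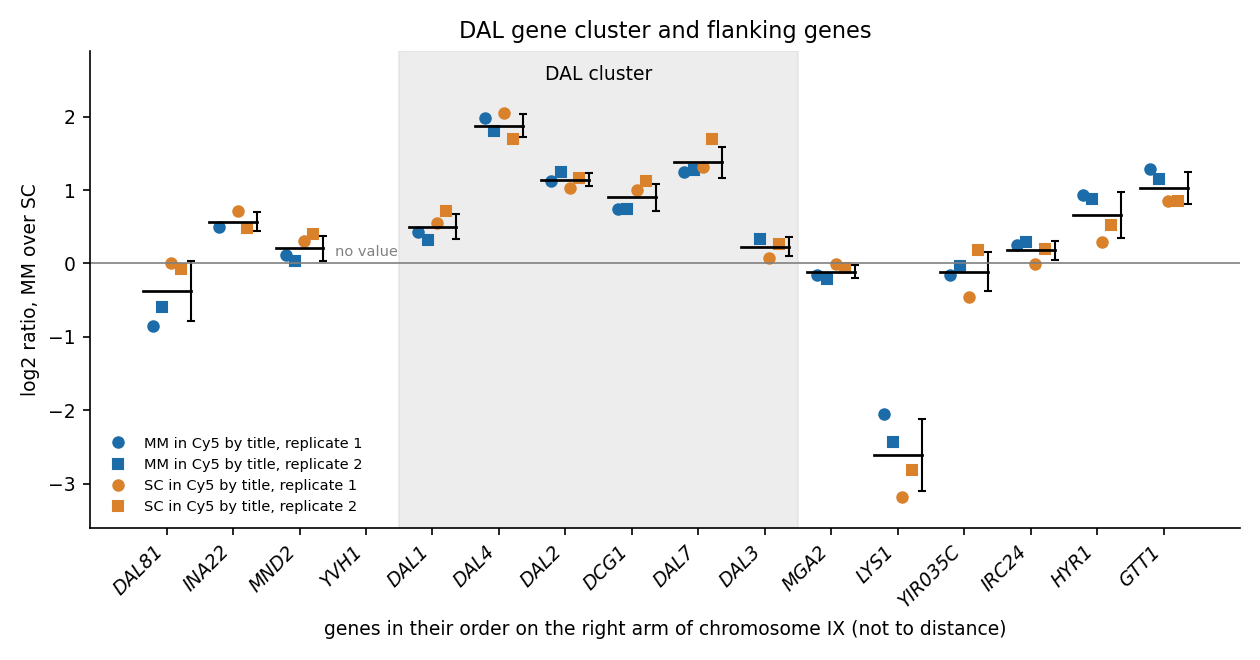
Log2 ratio of MM over SC (vertical axis) of the *DAL* cluster (shaded) and flanking genes, in their order on chromosome IX (horizontal axis, not to distance), with points for arrays, lines for means and bars for 1 SD (n = 3 or 4 arrays; *YVH1* had no value). The 6 shaded genes have means between 0.23 and 1.88. Outside the shading, *LYS1* lies at -2.61, the member *DAL81* at -0.37, *MGA2* at -0.11, *INA22* at 0.57 and *GTT1* at 1.03.

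Genes beyond the cluster had ratios both below and within its range. On the side of *DAL3*, *MGA2* (YIR033W), for a membrane-bound transcription factor of fatty acid desaturation, had log2 ratios of -0.16, -0.21, -0.01 and -0.06 and was not called (mean -0.11, adjusted p = 0.137 from limma). The next gene, *LYS1* (YIR034C), for the last enzyme of lysine synthesis, was lower, with a mean of -2.61 ± 0.49 (n = 4 arrays, SD; limma adjusted p = 2.39e-05). On the side of *DAL1*, *YVH1* (YIR026C) was not well measured on any array. *MND2* (YIR025W), for a subunit of the anaphase-promoting complex, followed at 0.21 ± 0.17 and *INA22* (YIR024C), for a mitochondrial assembly factor of ATP synthase, at 0.57 ± 0.13 (SD, n = 4 and 3 arrays). These means lay close to those of *DAL3* (0.23) and *DAL1* (0.50). Farther out on the side of *DAL3*, *HYR1* (YIR037W), for a thiol peroxidase, was called higher at 0.66 ± 0.31 and *GTT1* (YIR038C), for a glutathione transferase, at 1.03 ± 0.22 (SD, n = 4 arrays each), above the means of *DAL1* and *DAL3*. Of 9 flanking genes listed, 8 were tested, and 5 were called higher and 1 lower, with a median of 0.20, against 33.8% higher, 31.5% lower and a median of 0.03 over all ORFs tested. Between 3 and 4 were called higher on leaving out single arrays. *MND2* (adjusted p = 0.0470 from limma) and *IRC24* (0.0499) lay next to the threshold.

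Relatives of the *DAL4* and *DAL5* permeases had lower ratios than these genes. *FUR4* (YBR021W), for the uracil permease of the same family as *DAL4*, had no value on the first MM-Cy5 array and log2 ratios of 0.38, 0.76 and 0.78 on the others. *DAL4* exceeded it by 1.21 ± 0.26 (SD, n = 3 arrays). *FUI1* (YBL042C), for the uridine permease, lay at -0.01 ± 0.09, and *TNA1* (YGR260W), for a nicotinic acid permease of the *DAL5* family, at -0.05 ± 0.37 (SD, n = 4 arrays each); neither was called. The 5 differences taken between genes within arrays were *DAL7* minus *MLS1*, *DAL4* minus *FUR4*, *DAL81* minus *DAL82*, *DUR1,2* minus *DUR3* and *DAL2* minus *DCG1*. Each had the same sign on every array that measured both genes. By the exact two-sided sign-flip permutation test their p-values were 0.125 with 4 arrays and 0.25 with 3, the smallest these numbers allow, and 0.208 and 0.25 after Benjamini-Hochberg adjustment over the 5 pairs.

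Among the GATA factors and their inhibitor, 1 of 5 genes was called higher and 2 lower (3 lower with the arrays centered), with a median of -0.18. Over all ORFs tested, 65.3% were called, so this count lay near the background. *DAL80* (YKR034W), for the GATA repressor of the allantoin genes, had log2 ratios of 0.27, 0.59 and 0.59 and no value on the first MM-Cy5 array, with a mean of 0.48 ± 0.18 (SD, n = 3 arrays; limma adjusted p = 0.00462). With each ORF's own variance its call was lost, and 0 of the 5 genes were called higher. *GLN3* (YER040W) was lower in MM, with a mean of -1.66 ± 0.07, as was *GZF3* (YJL110C), for another GATA repressor, at -0.71 ± 0.21, while *GAT1* (YFL021W) lay at 0.07 ± 0.06 (SD, n = 4 arrays each). The transcript of a GATA activator of these genes was thus lower in MM while the genes for transport and breakdown were higher. *URE2* (YNL229C), for the protein that holds Gln3 in the cytoplasm, was not called, with a mean of -0.18 ± 0.15 (n = 4 arrays, SD; limma adjusted p = 0.0629). It was called lower with the arrays centered on their medians (log2 ratio -0.21, limma adjusted p = 0.023).

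Of 8 other transporter genes known for nitrogen catabolite repression or for uptake of peptides, 6 were called higher and 0 lower, with a median of 0.53, against 33.8% higher and 31.5% lower over all ORFs tested. The GABA permease gene *UGA4* (YDL210W), which like the allantoin genes depends on Dal81, reached 2.85 ± 0.29 (SD, n = 4 arrays). Proline permease *PUT4* (YOR348C) followed at 1.49 ± 0.12, and the dipeptide transporter *PTR2* (YKR093W) at 0.84 ± 0.07 (SD, n = 4 arrays each). The general amino acid permease *GAP1* (YKR039W) was higher by 0.46 ± 0.15 (SD, n = 4 arrays), less than each of the 3 allantoin and urea transporter genes. Of the ammonium transporter genes, *MEP2* (YNL142W) was called higher at 0.60 ± 0.14 and *MEP3* (YPR138C) at 0.43 ± 0.15 (SD, n = 3 and 4 arrays). *MEP1* (YGR121C) was not called, at 0.13 ± 0.06 (SD, n = 4 arrays; limma adjusted p = 0.0699). *OPT2* (YPR194C) was not called either, at 0.23 ± 0.34 (SD, n = 3 arrays; limma adjusted p = 0.18). The other GABA genes did not follow *UGA4*. *UGA1* (YGR019W), for GABA transaminase, lay at -0.12 ± 0.12 and *UGA2* (YBR006W), for succinate semialdehyde dehydrogenase, at 0.08 ± 0.08, without a call, and the activator gene *UGA3* (YDL170W) was lower in MM at -1.10 ± 0.10 (SD, n = 4 arrays each).

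Urea also arises from arginine. *CAR1* (YPL111W), for arginase, had log2 ratios of 0.46, 0.16, 0.22 and 0.30, and *CAR2* (YLR438W), for ornithine transaminase, ranged from 0.52 to 0.66. Both were called higher in MM, as were 33.8% of all ORFs tested, and by less than *DUR1,2* on every array. *CAR1*, with a mean of 0.29, ranked 1659th from the highest of the ORFs tested, and *CAR2*, with a mean of 0.58, 790th. Their adjusted p-values were 0.00881 and 0.000135 from limma.

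**Figure D4:**
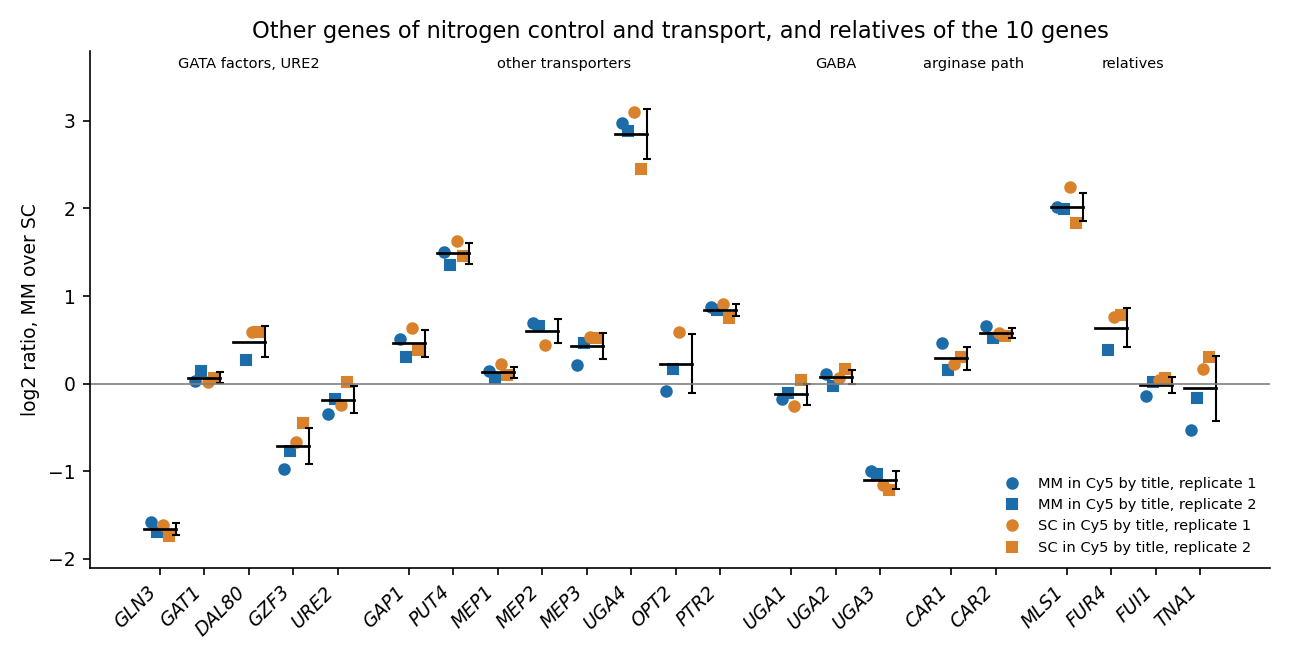
Log2 ratio of MM over SC (vertical axis) for genes of nitrogen control, transport, GABA and arginine use, and for relatives of the 10 genes, with points for arrays, lines for means and bars for 1 SD (n = 3 or 4 arrays); *UGA4* is drawn once, among the transporters. *UGA4* at 2.85 and *MLS1* at 2.02 are highest and *GLN3* at -1.66 lowest.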

How the data were processed

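The authors spotted PCR-amplified yeast ORFs on glass slides, removed local background after scanning, and set the mean of well measured spots equal between channels. They deposited for each array 1 log2 ratio of each ORF that was well measured on it. The columns carried 5548 to 5992 values each, with medians of -0.03, -0.03, 0.06 and 0.11, and were used as deposited. No scanner signals were used here, so background correction could not be varied, and the number of arrays limits the precision. ORFs measured on 3 or more arrays were fitted in R 4.3.3 with limma 3.58.1 (lmFit, eBayes), with the mean over arrays as the single coefficient, and the fit was tested on simulated data. Orientation was tested in a second limma fit. Symbols and gene order came from the NCBI R64 gene table, which listed 5801 of the 6301 ORFs, and *DUR1,2* stands there as *DUR12*. Coordinates served only to put the genes of chromosome IX in order. Alternatives were leaving out single arrays, centering each on its median or scaling it, an orientation or replicate term, other filters on missing values, each ORF's own variance, the study's threshold, and averaging same-numbered arrays. The text names all 10 members, and other genes only from lists of cluster neighbors, nitrogen regulators and transporters, GABA and arginine genes and relatives. Members and lists were chosen with earlier results of these data known.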

Additional observations from a re-analysis of the deposited data

Results flagged for a closer look

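*DAL7* had 1 array far from the others. Its log2 ratio was 1.70 on the second SC-Cy5 array, against 1.25, 1.27 and 1.31 on the rest, and the gap divided by the range was 0.86. Of 34 genes with 4 values examined, 1 was apart in this way, and chance alone puts about 5% past the limit. Without that array, *DAL7* kept its call at a log2 ratio of 1.28.

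*TNA1*, the relative of *DAL5*, took opposite signs in the 2 orientations. Its log2 ratios were -0.53 and -0.16 on the MM-Cy5 arrays and 0.17 and 0.30 on the SC-Cy5 arrays. The difference, MM-Cy5 minus SC-Cy5, was -0.57 (standard error 0.15; adjusted p = 0.122 from limma), so it did not pass after adjustment.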

How the results depend on the processing

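Under all 13 alternatives, *DAL1*, *DAL2*, *DAL4*, *DAL5*, *DAL7*, *DUR1,2* and *DUR3* stayed called higher in MM, with a highest adjusted p of 0.0246 from limma, for *DAL1* with each ORF's own variance. *DAL3* lost its call in 6 of its 10 alternatives and *DAL81* gained one in 7 of 13. The count of members called lower, 0 as reported, was thus 1 with the arrays centered, centered and scaled, with an orientation term, with same-numbered arrays averaged and at the study's threshold. On leaving out single arrays, 7 to 8 members were called higher and 0 to 1 lower. *DAL3* and *DAL82* lack a value on 1 array each and dropped out where all 4 were required. Centering moved the second SC-Cy5 array most, by 0.11. Replicate numbers are shared between orientations by label only, and the replicate 1 minus 2 differences correlated across ORFs at r = 0.0121. With the replicate block, 1799 ORFs were called higher and 1702 lower, against 2016 and 1875 without it, and 7 and 0 members, since *DAL3* was lost (adjusted p = 0.120).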
